A study of Danaus plexippus with 36 samples.

Results

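The comparison set the proboscis of gravid female monarch butterflies (Danaus plexippus) against the proboscis of males. It was formed from the tissue and sex given in the labels, which yielded 12 of the 35 libraries with counts, 6 from females and 6 from males. Both groups were adults caught in the field, with no further strain, age or treatment given for either, and every female was gravid, so that sex and reproductive state cannot be told apart. The females were animals 18, 25 and 27 (batch 1) and 11, 1 and 3 (batch 2), and the males were animals 13, 15 and 20 (batch 1) and 12, 16 and 2 (batch 2). The study asked which genes, chemosensory ones in particular, differ between the sexes and between the antennae, legs and proboscis.

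The butterfly proboscis is the coiled sucking tube through which the adult drinks nectar and water. It carries muscle, cuticle, trachea and contact chemosensory hairs whose neurons use gustatory receptors. Females of many butterflies judge host plants mainly with leg and antennal sensilla before laying eggs, while both sexes taste food with the proboscis. In most moths and butterflies females carry a Z and a W chromosome and males a pair of Z chromosomes. The deposited table names genes only by identifiers that begin with DPOGS, which match no entry of the RefSeq gene table (assembly MEX_DaPlex), so no gene below has a name, a role or a location, and no marker gene could be looked up.

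With M standing for 1000000 counts, female proboscis libraries held 1.92 to 53.7 M and male ones 9.47 to 41.8 M. Of the 12 libraries 10 correlated best, in log2 CPM (counts per 1000000 counts of the library), with another proboscis library. Those of female 27 and male 2 correlated best with the legs of the same animal. These best matches were taken over genes kept by a filter on low counts across all tissues, and the medians below over genes kept within proboscis. The 4 libraries with the lowest median correlation with the other proboscis libraries were those of male 2 (0.668), female 1 (0.788), female 11 (0.806) and male 20 (0.817). The other 8 lay between 0.870 and 0.904. The libraries of female 1 and male 2 were also the deepest and that of female 11 the shallowest. The main counts of genes below are therefore also given without these 4 libraries, which leaves 4 of each sex. Sex and batch are then no longer balanced, because female 3 is the only female left in batch 2. All results without these 4 libraries carry that limit.

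No separation of the sexes was detected in the overall profile of the proboscis. Libraries of the same sex had a median correlation of 0.835 over 30 pairs (0.594 to 0.946), and libraries of opposite sex 0.842 over 36 pairs (0.519 to 0.938). Among the 8 libraries that lay close together the medians were 0.897 for the same sex and 0.904 for opposite sex. Sex took 4.91% of the variance in log2 CPM after batch, and batch took 11.7%. In the 400 arrangements of sex within batches the share of sex ran from 4.41 to 16.4%, with a median of 7.98% (exact permutation test, 1-sided, p = 0.93). Without the 4 libraries the share was 12.5% (exact permutation test over 30 arrangements, 1-sided, p = 0.667). The 10 most abundant genes took 20.1% ± 5.34 of the counts in female and 18.9% ± 3.57 in male proboscis (SD, n = 6 each). In a draw of 1000000 counts 10287 ± 666 genes were expected with a count in female and 10242 ± 424 in male libraries (SD, n = 6 each). Within batch 1 and batch 2 the female minus male differences were -3.38 and 5.73 percentage points in the first measure and 426 and -336 genes in the second. None of 5 such library measures, which also included total counts and the scores on the first 2 principal components, passed the test between the sexes (exact permutation tests within batches, 2-sided, each adjusted p = 0.99; the smallest unadjusted p that the design allows is 0.005).

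**Figure D1:**
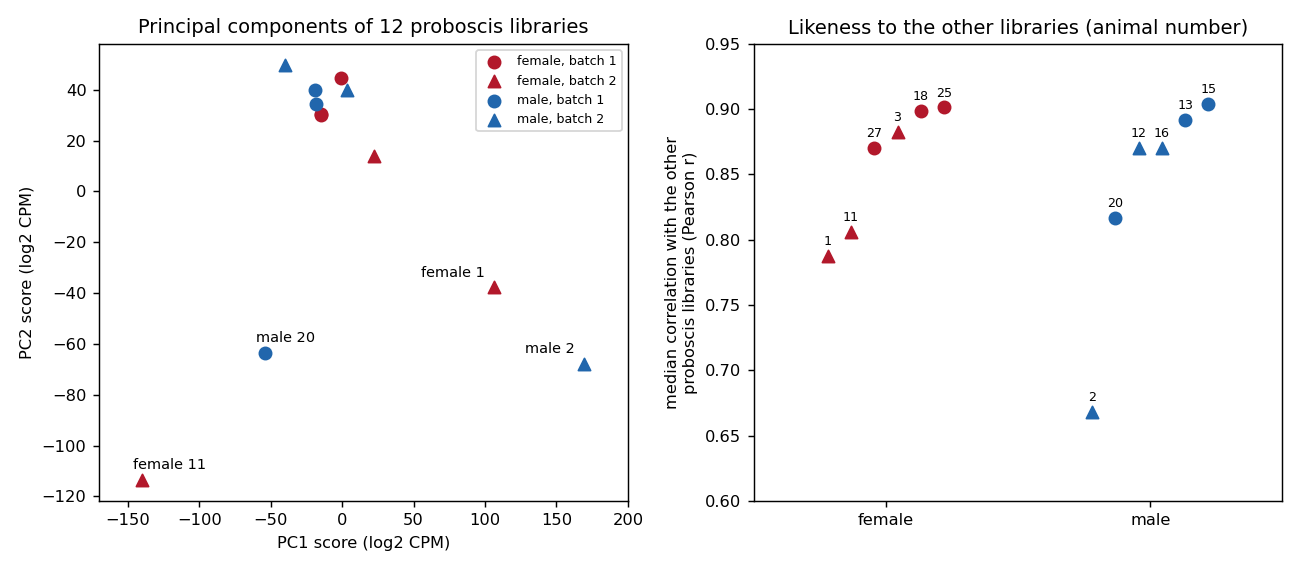
The left panel plots the 12 proboscis libraries by their scores on the first 2 principal components of log2 CPM, and the right panel plots each library's median Pearson correlation with the other 11, labelled by animal number. Females and males intermingle, and the libraries of male 2, female 1, female 11 and male 20 lie away from the other 8.

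No gene passed the test between female and male proboscis. At an adjusted p below 0.05, females were higher in 0 and lower in 0 of the 10416 genes that entered the fit (0% called, edgeR quasi-likelihood test with batch as a term, Benjamini-Hochberg adjustment, smallest adjusted p = 0.99991). An unadjusted p below 0.05 was found for 94 genes (0.902%), 48 higher and 46 lower in females, where an even spread of p-values would give 520.8. The other tools gave 0 genes with limma voom (160 at an unadjusted p below 0.05), 0 with limma voom and library weights (696) and 2 with DESeq2 (0.0144% of 13842 genes, 281 at an unadjusted p below 0.05). Without the 4 libraries that stood apart edgeR again called 0 genes, with 513 at an unadjusted p below 0.05, and DESeq2 called 40. With 1 animal left out DESeq2 called from 0 genes (without male 15 or female 25) to 10 (without female 3). Batch 1 alone and batch 2 alone each gave 0 genes in edgeR, with 569 and 317 at an unadjusted p below 0.05.

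Fitted differences were mostly small. The median absolute log2 fold change was 0.22, with a median standard error of 0.46. Fitted levels were more than 2-fold higher in females for 244 genes and more than 2-fold lower for 229, and more than 4-fold higher for 23 and lower for 18. Without the 4 libraries that stood apart, 449 genes were more than 2-fold higher and 321 lower in females, and 103 more than 4-fold higher and 13 lower. All 12 libraries gave a median absolute log2 fold change of 0.35 between batches, with 921 genes beyond 2-fold, 0 called and 417 at an unadjusted p below 0.05 in edgeR. A sex difference that itself differed between the batches was called for 0 genes by edgeR, with 593 at an unadjusted p below 0.05. The number called at an adjusted p below 0.05 was 7 without female 18, 2 without male 2 and 1 without male 12.

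**Figure D2:**
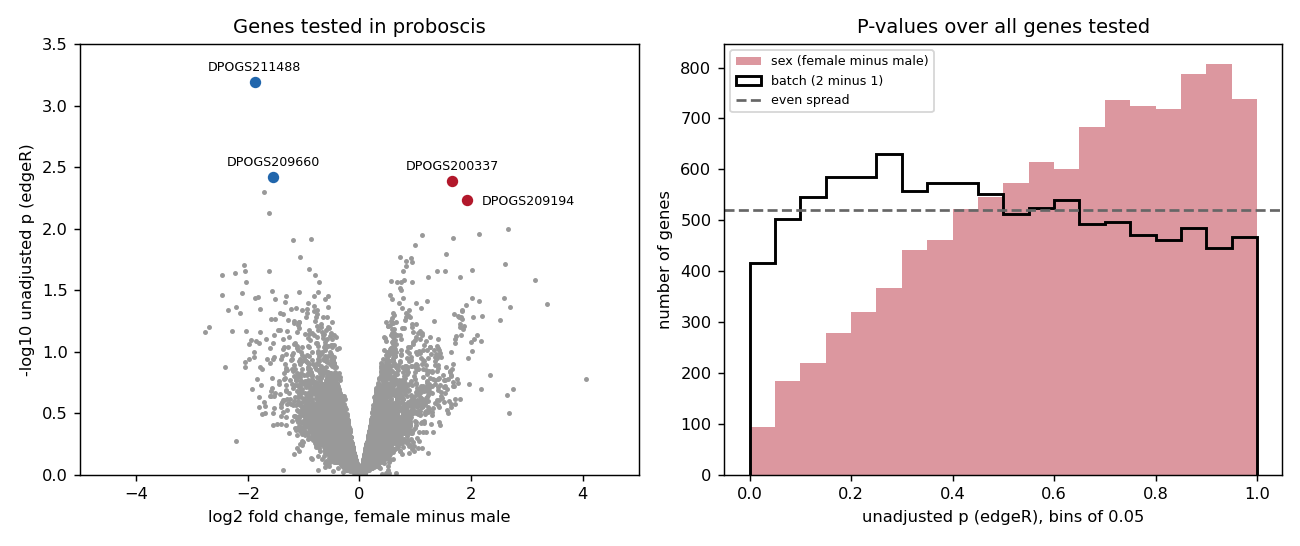
The left panel plots each of the 10416 genes by its log2 fold change (female minus male) and the -log10 of its unadjusted p from edgeR, with the 2 higher genes of smallest p in red and the 2 lower ones in blue. The right panel counts genes in p-value bins of 0.05 for sex (filled) and batch (line); the lowest bin holds 94 genes for sex and 417 for batch, both under the even spread of 520.8.

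The 95% intervals show how far these libraries bound a difference between the sexes. They come from the fit with 94 unadjusted p-values below 0.05 (edgeR), where an even spread would give 520.8. Whether they hold a coverage of 95% was not tested. For 3305 genes (31.7%) the interval lay wholly within a 2-fold difference in either direction, and for 8208 (78.8%) within a 4-fold difference. Without the 4 libraries these were 4373 (41.5%) and 8607 (81.8%) of 10528 genes. The bound depended on the level of the gene. Within 2-fold lay 178 of 3426 genes with a mean of 1 to 10 CPM (5.20%), 2526 of 5506 with 10 to 100 CPM (45.9%), 564 of 1142 with 100 to 1000 CPM (49.4%) and 37 of 143 above that (25.9%). Of the 199 genes under 1 CPM 0 were bounded within 2-fold. For the remaining genes a 2-fold difference between the sexes was not excluded by these 12 libraries.

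Genes with the smallest p-values are described next, although none passed the adjustment. The libraries hold the RNA of whole appendages, so fewer cells of a type and less RNA per cell cannot be told apart. DPOGS211488 had the smallest p of all. It had 2.27 CPM in the lowest female library, a median of 4.27 and 11.1 in the highest, against 7.79, 20.5 and 35.2 CPM in males. The sexes overlapped only in that female 18 lay above male 12 and male 16. The means were 5.37 ± 3.41 CPM in females and 19.8 ± 9.93 CPM in males (SD, n = 6 each), with a log2 fold change of -1.88 ± 0.42 (SE, edgeR, unadjusted p = 0.000640, adjusted p = 0.99991). The difference had the same direction in both batches, with means of 7.14 CPM in females and 25.99 in males in batch 1 and of 3.60 and 13.7 CPM in batch 2. Legs, which had no part in choosing the gene but came from the same animals, had 0.743 to 3.29 CPM in females and 3.59 to 7.78 CPM in males, without overlap (log2 fold change -1.55 ± 0.39, edgeR, unadjusted p = 0.00145, adjusted p = 0.431). In antennae the ranges overlapped, at 0 to 31.0 CPM in females and 6.24 to 88.7 CPM in males.

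The other gene on the lower side, DPOGS209660, had a lowest, median and highest level of 1.58, 3.69 and 6.47 CPM in females, against 3.77, 10.1 and 16.0 CPM in males (log2 fold change -1.55 ± 0.44, SE, edgeR adjusted p = 0.99991). Male 2, with the lowest male value, lay among the females, and each other male lay above every female. In legs its means were 2.27 ± 1.26 CPM in females and 3.27 ± 2.08 CPM in males (SD, n = 6 each), with a broad overlap (unadjusted p = 0.352, adjusted p = 0.998, edgeR).

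On the higher side, DPOGS200337 had 2.32, 4.58 and 7.36 CPM in the lowest, median and highest female library, against 0.581, 1.46 and 1.78 CPM in males. Every female library lay above every male library, and the log2 fold change was 1.66 ± 0.48 (SE, edgeR, unadjusted p = 0.00412, adjusted p = 0.99991). Its leg levels overlapped between the sexes, with means of 5.31 ± 4.71 CPM in females and 1.07 ± 0.575 CPM in males (SD, n = 6 each), and its antennal means were 15.7 ± 12.8 CPM in females (n = 6) and 17.1 ± 10.2 CPM in males (SD, n = 5). DPOGS209194 had 5.54, 16.6 and 48.7 CPM in females, against 1.51, 4.76 and 6.93 CPM in males (log2 fold change 1.93 ± 0.59, SE, edgeR adjusted p = 0.99991). Its 2 lowest females, 18 and 1, lay within the male range. The highest female, 27, stood far above the others, and without it the log2 fold change was 1.38. In legs the same gene averaged 100.0 ± 99.8 CPM in females and 16.0 ± 5.73 CPM in males (SD, n = 6 each, edgeR adjusted p = 0.404), and female 27 was again the highest library, at 294 CPM.

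Every female library lay above every male library for 4 genes (0.0384% of those tested), and the reverse was found for 0. Besides DPOGS200337 these were DPOGS207078, DPOGS206977 and DPOGS210418, which are named because their count is small and after their values were seen. The number of genes expected to separate in this way without any difference between the sexes was not computed. The count of 4 is therefore not shown to exceed it. DPOGS207078 had 6.43 to 12.3 CPM in females and 1.76 to 5.94 CPM in males, DPOGS206977 12.7 to 21.4 CPM in females and 3.25 to 12.6 CPM in males, and DPOGS210418 34.8 to 54.9 CPM in females and 21.4 to 32.998 CPM in males. The log2 fold changes were 1.13, 0.84 and 0.56 in the same order (edgeR, adjusted p = 0.99991 for each). Of the 3, DPOGS206977 was also without overlap in legs, with 13.2 to 16.6 CPM in females and 6.04 to 12.8 CPM in males, while the leg ranges of the other 2 overlapped.

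**Figure D3:**
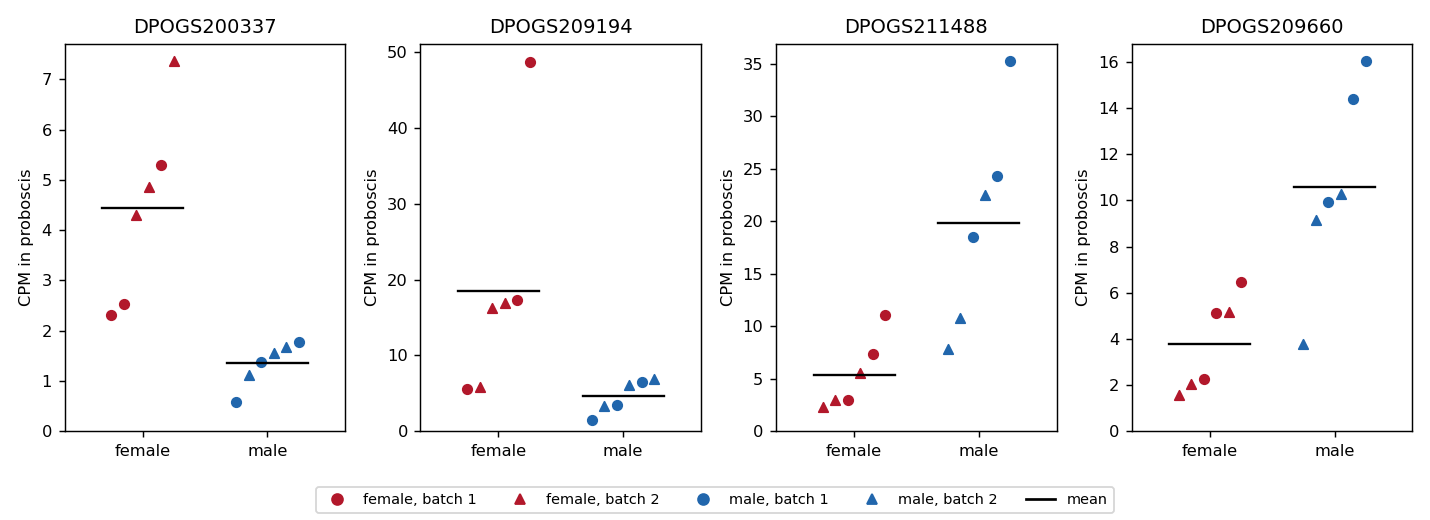
CPM in each proboscis library, females on the left and males on the right of each panel, for the 2 genes higher and the 2 genes lower in females with the smallest p. Circles are batch 1, triangles batch 2 and bars group means; DPOGS200337 shows no overlap, DPOGS211488 and DPOGS209660 overlap in a few libraries, and 1 female library lies far above the rest for DPOGS209194.

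A further contrast lay in genes detected in the proboscis of 1 sex only, which the filter on low counts removed. That filter asks for a minimum level in as many libraries as a sex has. A gene with a count in fewer libraries could therefore not enter the edgeR fit, whatever its level. With a rule set after the values were seen, 6 genes had a count in at least 5 female and 0 male proboscis libraries (0.0424% of 14152 genes with a count), and 1 gene in at least 5 male and 0 female libraries (0.00707%). The summed depth in proboscis was 132 M counts in females and 105 M in males. In legs it was 221 M and 243 M, and in antennae 56.4 M in females and 22.9 M in males. A lack of counts in male antennae is therefore weaker evidence than one in male legs. Legs and antennae of the same butterflies, which the rule did not use, separated these genes. Of the 6 genes 2, DPOGS200003 and DPOGS213736, also had 0 counts in every male leg and antennal library, while the other 4 had 16 to 110 counts in male legs and antennae together.

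DPOGS200003 had a count in 6 of 6 female proboscis libraries and in 0 of 6 male ones. Its levels were 0.251, 0.453 and 2.21 CPM in the lowest, median and highest female library, from 67 counts in all. The male libraries held 0 counts, where 3 counts over the group would be 0.0267 CPM. With that floor the summed level was at least 17.5-fold higher in these female libraries. This bound covers only the counting error of the 0 male counts, takes the female sum as observed, and was 9.60 without male 2. The gene was chosen for those 0 counts, so the bound describes these libraries and is not a test. The same holds for the bounds of DPOGS213736 and DPOGS203388 below. In legs 5 of 6 female libraries held 31 counts and 6 male libraries 0, and in antennae 5 of 6 female libraries held 165 counts and 5 male libraries 0. Over the whole series 16 of 18 female libraries had a count (263 counts) and 0 of 17 male libraries. All are antennae, legs and proboscis of the same 6 females and 6 males, so the libraries are not independent. The 2 female libraries without a count were the antennae of female 11 and the legs of female 3. In proboscis DESeq2 called this gene, with an adjusted p of 0.0464 and a log2 fold change of 5.95 ± 1.32 (SE). The call was lost when any 1 of 9 animals was left out (adjusted p from 0.0209 to 0.410), and also without the 4 libraries (0.315). The gene did not pass edgeR without the filter (unadjusted p = 0.000973, adjusted p = 1).

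DPOGS213736 had a count in 5 of 6 female and 0 of 6 male proboscis libraries, the shallow library of female 11 being the one without. Its 89 female counts gave 0, 0.608 and 0.774 CPM in the lowest, median and highest library. The summed level was at least 23.3-fold higher in females (12.8 without male 2). In legs 4 of 6 female libraries held 35 counts, in antennae 4 of 6 held 98, and no male library held a count. Thus 13 of 18 female and 0 of 17 male libraries had one, again from the same 6 females and 6 males. No tool called the gene (DESeq2 adjusted p = 0.244; limma voom without the filter, adjusted p = 0.119; edgeR without the filter, adjusted p = 1).

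DPOGS203388 went the other way. All 6 female proboscis libraries had 0 counts, where 3 counts over the group would be 0.0210 CPM. Male proboscis libraries had 0, 1.86 and 6.16 CPM at the lowest, median and highest, with a count in 5 of 6. The summed level was at least 169-fold lower in females. Male 2 held 312 of the 397 male counts, and the bound was 65.9 without it and 93.5 without female 1. DESeq2 called it (log2 fold change -7.07 ± 1.47, SE, adjusted p = 0.0218). The call was kept when any 1 of 7 animals was left out and lost with any 1 of the other 5 (adjusted p from 5.11e-05 to 0.210), and it was kept without the 4 libraries (0.00304). The gene did not pass edgeR without the filter (unadjusted p = 0.000983, adjusted p = 1). In legs 2 of 6 female libraries held 5 counts and 6 of 6 male libraries 408, and in antennae 0 female libraries and 3 of 5 male libraries had a count.

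**Figure D4:**
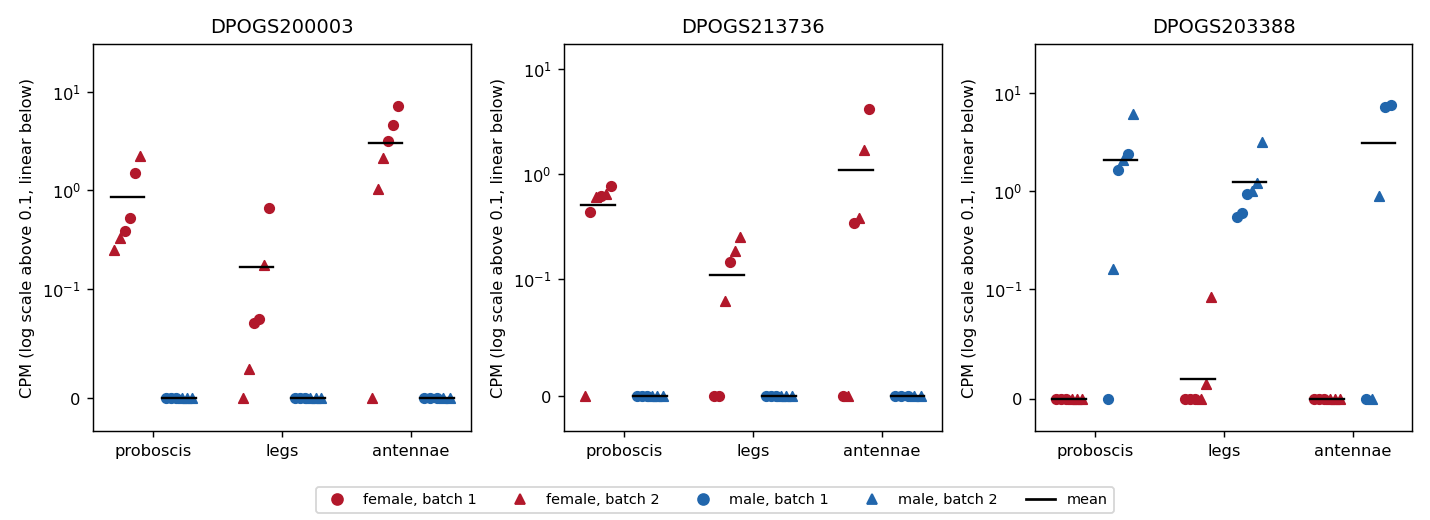
CPM in each library of proboscis, legs and antennae, females left and males right in each tissue, for DPOGS200003, DPOGS213736 and DPOGS203388; the axis is logarithmic above 0.1 CPM and linear below, circles are batch 1, triangles batch 2 and bars means. Every male library lies at 0 for the first 2 genes, and every female proboscis and antennal library lies at 0 for DPOGS203388.

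Genes that differ between the sexes in legs, the other contact taste appendage, were followed into the proboscis. In the 6 female and 6 male leg libraries the same test called 3 genes, each higher in females (0.0283% of 10598 genes). These legs came from the same animals as the proboscis libraries. Because the leg libraries chose the 3 genes, their leg values and proboscis minus leg differences are not independent of that choice. DPOGS209204 averaged 470 ± 498 CPM in female and 5.12 ± 3.94 CPM in male legs (SD, n = 6 each, edgeR adjusted p = 0.00733). In proboscis its levels were 0.154, 2.23 and 24.4 CPM in the lowest, median and highest female library, against 0, 0.0978 and 0.691 CPM in males. Females 25 and 27 were the highest, and females 18 and 3 lay within the male range. The gene was too low in too many proboscis libraries to pass the filter. Without the filter the log2 fold change was 4.56 ± 1.44 (SE, edgeR, unadjusted p = 0.00653, adjusted p = 1, and DESeq2 adjusted p = 0.165). The sex difference in proboscis minus that in legs was -0.79 ± 1.65 on the log2 scale (SE, edgeR adjusted p = 1). Antennal means were 247 ± 191 CPM in females (n = 6) and 735 ± 1014 CPM in males (SD, n = 5), and the sex difference in proboscis minus that in antennae was 7.47 ± 1.59 (SE, edgeR, unadjusted p = 9.67e-05, adjusted p = 0.856).

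DPOGS208131 averaged 376 ± 206 CPM in female and 36.6 ± 17.7 CPM in male legs (SD, n = 6 each, edgeR adjusted p = 0.0235). In proboscis it had 13.2, 40.6 and 156 CPM in females at the lowest, median and highest, against 7.14, 20.7 and 30.1 CPM in males. Females 18 and 11 lay within the male range and the other 4 above it. The proboscis log2 fold change of 1.56 ± 0.56 (SE, 95% interval 0.34 to 2.78, edgeR adjusted p = 0.99991) stood against 3.28 ± 0.45 in legs, and the difference between them did not pass the test (-1.79 ± 0.73, SE, edgeR, unadjusted p = 0.0213, adjusted p = 1).

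The third leg gene, DPOGS211120, is named because the count is small. It averaged 19.3 ± 7.38 CPM in female and 3.80 ± 0.649 CPM in male legs (SD, n = 6 each, edgeR adjusted p = 0.0139), without overlap. In proboscis the ranges of the sexes lay over each other, at 5.67, 8.10 and 13.4 CPM in females and 4.27, 7.45 and 12.8 CPM in males. There the log2 fold change was 0.09 ± 0.35 (SE, edgeR, with an adjusted p of 0.99991). Its 95% interval of -0.66 to 0.84 excludes a 2-fold difference in either direction. That interval also lies below the leg estimate of 2.33 ± 0.30 (SE), which comes from the libraries that chose the gene. The sex difference in proboscis minus that in legs was -2.25 ± 0.42 (SE, edgeR), the smallest p of all genes (unadjusted p = 1.99e-05), but it did not pass the adjustment (adjusted p = 0.220).

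**Figure D5:**
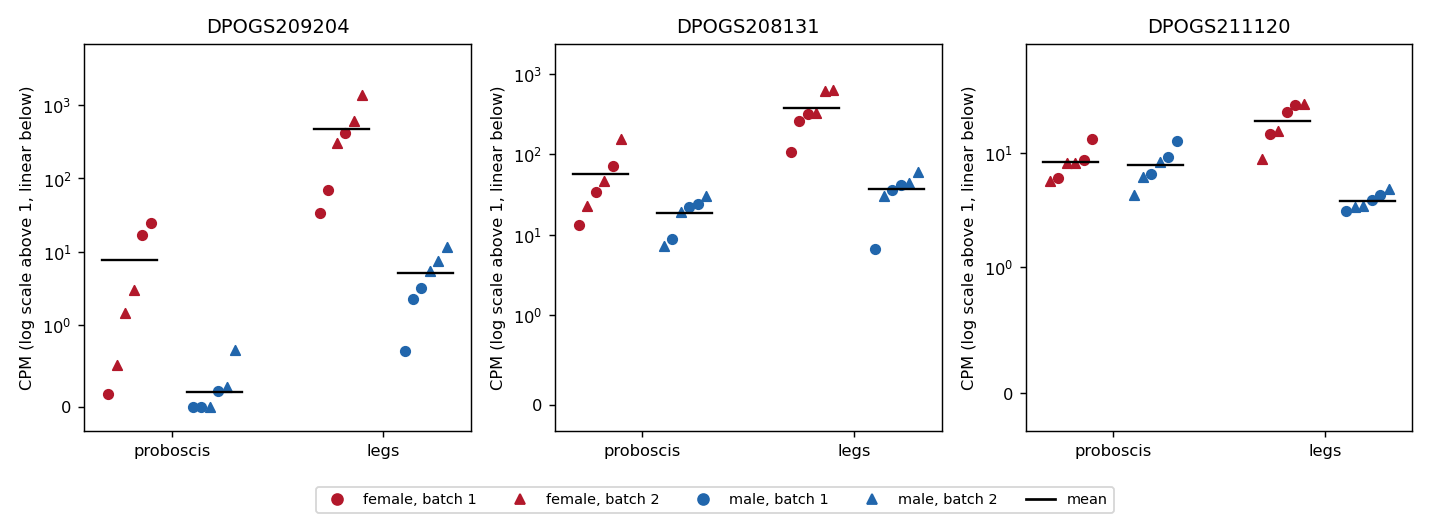
CPM in each proboscis and leg library, females left and males right, for the 3 genes called between the sexes in legs; the axis is logarithmic above 1 CPM and linear below, circles are batch 1, triangles batch 2 and bars means. Female legs lie above male legs in all 3 panels, whereas in proboscis the sexes overlap in all 3.

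Tested over all genes, a sex difference that differed between proboscis and legs was called for 0 of 11034 genes by edgeR (0%, 188 at an unadjusted p below 0.05), and one that differed between proboscis and antennae for 0 of 11390 genes (0%, 210 at an unadjusted p below 0.05). With the animal as a block the counts were again 0, with 285 and 214 at an unadjusted p below 0.05. The count of 3 genes in legs and 0 in proboscis is therefore not shown to be a difference between the appendages. The leg libraries also gave narrower estimates, with a median standard error of 0.34 on the log2 scale against 0.46 in proboscis, and 49.2% of leg genes bounded within a 2-fold difference.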

How the data were processed

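Per the labels' protocols, RNA of dissected appendages went into stranded mRNA libraries. The authors deposited unscaled whole-number counts, 1 column per library. The submitters' processing notes list featureCounts (1.5.2), HISAT2 (2.0.5) and FastQC (0.11.5), as well as limma. How strand and multiply mapped reads were treated, and on which build, is not stated there, so genes with near-identical copies or antisense partners are uncertain. Tests used edgeR 4.0.16, DESeq2 1.42.0 and limma 3.58.1 under R 4.3.3, and figures matplotlib 3.10.9. Within proboscis filterByExpr kept 10416 of 15130 genes and removed 0.235% of counts. For comparisons within a tissue, libraries were scaled by TMM within that tissue, and sex and batch were terms of 1 quasi-likelihood fit. For the tissue interactions both tissues were filtered and scaled together, so these estimates need not equal the difference of the single-tissue ones. That fit held the groups of sex and tissue and batch, without an animal term. Fold changes are female minus male on the log2 scale, with standard errors derived from the F statistic. CPM are counts per 1000000 of TMM-scaled library size. Bounds use a floor of 3 counts over the group with 0 counts and the observed sum of the other group. Permutations kept the number of females in each batch.

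Named by rule were the 2 higher and 2 lower genes of smallest p with at least 1 CPM in the higher sex, the genes called by DESeq2, and up to 2 genes per direction called in legs. Genes, lists and tests were chosen with earlier results of these data known. The detection rule, the variance share and the omission of 4 libraries were chosen after seeing the data. Alternatives were other scalings, filters and tools, no batch term, batches apart, all tissues in 1 fit, thinning and leaving out each animal.

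Libraries are separate animals, and no pair of a sex agreed within sampling noise (lowest chi-square per gene 40.8 over 30 pairs). Tissues are paired by animal: deviations from group means had a median correlation of 0.463 between proboscis and legs and 0.214 between proboscis and antennae. The fits were also run on simulated counts, whose outcome is not given here and is not relied on.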

Additional observations from a re-analysis of the deposited data

Results flagged for a closer look

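Of 38 groups of 6 libraries checked, 7 held a library far from the others, where chance flags about 1 in 20 groups. The groups share libraries and related measures, so the 7 are not shown to exceed that rate. Of these 5 were library measures. Male 2 stood apart in total counts (41.8 M, that is units of 1000000), in its score on the first principal component (169) and in its median correlation with the other proboscis libraries (0.668). Among males, male 20 had the highest share of counts in the 10 most abundant genes (25.7%), and among females, female 11 had the fewest genes expected in a draw of 1000000 counts (9016). The other 2 were levels of named genes: DPOGS209194 was far higher in female 27 (48.7 CPM) than in the other females, and DPOGS209204 far higher in male 2 (0.691 CPM) than in the other males. Whether these libraries differ for a technical or a biological reason was not tested.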

How the results depend on the processing

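The count of 0 genes between the sexes held in edgeR under each alternative run and in limma voom with and without library weights, and DESeq2 called 2 (0 to 10 with 1 animal left out, 40 without the 4 libraries). Genes at an unadjusted p below 0.05, 94 as reported, numbered 285 without a filter, 147 without the batch term, 281 with DESeq2, 160 with limma voom, 696 with library weights, 154 in the fit of all libraries, 569 and 317 in batch 1 and batch 2 alone, and 513 without the 4 libraries that stood apart. Leaving out 1 animal gave 54 (without female 27) to 278 (without male 2). Genes without overlap, 4 as reported, numbered 8 with upper-quartile scaling, 419 without the 4 libraries and 5 to 43 (without male 2) with 1 animal left out; fewer libraries overlap less by construction. The sex by batch count ran from 0 to 7 (without female 18). Sex-limited genes, 7 as reported, numbered 1 when all 6 libraries were asked for and 28 with at least 4. They numbered 0 with every library thinned to the depth of the shallowest, so that this count rests on depth. A further run without the 4 libraries gave 23. With 4 of each sex left, the rule of at least 5 could not apply, so the 23 are not comparable with the 7. Without the 4 libraries the lower bounds were 10.9-fold for DPOGS200003 and for DPOGS213736 and 41.7-fold for DPOGS203388. The proboscis log2 fold change of DPOGS211120 turned negative with library weights (-0.25), in batch 1 alone (-0.048), without the 4 libraries (-0.28) and without male 20, female 27 or male 2 (range -0.064 to 0.21 over animals). Female minus male differences in library measures changed sign with the animal left out. They ran from -0.45 to 0.51 in log2 total counts and from -115 to 299 genes in the draw. In the share of the 10 most abundant genes they ran from -0.763 to 2.54 percentage points. Differences in component scores ran from -36.8 to 11.02 in the first and from -28.4 to 23.8 in the second. Components were refitted for each set of libraries and their sign is arbitrary, so these 2 ranges do not show a change of direction. No adjusted p was under 0.325 for any measure (exact permutation tests within batches). For the sex comparison itself no paired analysis was possible because females and males are different animals. For the tissue interactions the animal as a replicate block gave 0 genes against legs and 0 against antennae, and changed no call. Genes at a few CPM are limited by the depth of female 11, at 1.92 M counts.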
